A study of Arabidopsis thaliana with 34 samples.

Results

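Leaf transcripts of the Arabidopsis thaliana accessions Tenela (Te) and Rschew (Rsch) were compared after 8 h at -3 °C, with 3 ATH1 arrays of each accession, which were chosen by their titles and are 6 of the 34 arrays of the series. All plants were wild accessions grown in soil for 42 days at a day length of 16 h, with 20 °C by day and 18 °C by night, and then kept for 14 days at 4 °C in light of 90 µmol m-2 s-1. Their leaves were then cut, placed in tubes with water and kept dark and supercooled at -3 °C for 8 h. The reference state was leaves of intact plants after the 14 days at 4 °C, called cold acclimated, with 3 further arrays of each accession. In any change between the states, the effects of -3 °C, of cutting and of the dark in tubes therefore cannot be told apart. Each array held RNA pooled from 3 leaves of 3 plants, and the study's design gives 3 independent biological replicates. Each accession was a single line, so a difference belongs to these lines. Columbia-0 (Col) was the third accession of the study and had 2 arrays at 8 h.

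Many plants of temperate climates raise their freezing tolerance during days of cold above zero, and some raise it further during hours below zero before ice forms, which is called sub-zero acclimation. The above-zero response is known for CBF transcription factors, COR and dehydrin proteins, soluble sugars and flavonoids. Accessions of one species can differ in such a response, or can differ in transcript level whatever the state. The comparison at 8 h holds both kinds, and genes that already differed when cold acclimated were therefore set apart from those that differed at 8 h only.

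Values are log2 intensities of 22746 probe sets, most of which stand for a single gene. The probes follow the Columbia-0 sequence, so for any gene a difference in transcript level and a difference in how well the probes match the accession's own sequence cannot be told apart. In whole leaves, fewer cells of a type and less RNA per cell cannot be told apart either. The medians of the 6 arrays at 8 h lay between 6.06 and 6.16, and precision is limited by having 3 arrays a group. The 5 leaf mesophyll markers measured (LHCB4.2, RCA, PRK, PSAN and PSBY) had mean levels of 9.74 to 12.43, and the 3 root markers (EXPA7, EXPA18 and PYK10) had 3.50 to 5.15, below the 40th percentile of all values at 5.32. None of these 8 markers was called at 8 h, with Te minus Rsch differences of -0.78 to -0.10 for the mesophyll markers and -0.09 to 0.15 for the root markers. The 3′ minus 5′ signal of actin, a measure of RNA length, overlapped between the accessions by 1 pair of control probe sets. By the other actin pair it was 2.97, 3.52 and 3.78 in Te and 2.70, 2.84 and 2.85 in Rsch, without overlap. Its part in the results was not tested. The same measure for GAPDH overlapped, with -0.36, 0.01 and -0.16 in Te and -0.25, -0.15 and -0.08 in Rsch. By the spike-in control bioC the 34 arrays formed a smaller, dim set of 9 and a larger, bright set of 25. All 6 arrays at 8 h were in the larger set, while replicate 1 of both accessions was in the smaller set when cold acclimated.

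After 8 h at -3 °C the signal of 1000 probe sets differed between Te and Rsch, which is 4.4% of those tested (limma, adjusted p under 0.05, the rule for a call throughout). Te was higher in 589 of them (2.59%) and lower in 411 (1.81%). The differences reached at least 2-fold in 246 probe sets that were higher in Te and 192 that were lower, and at least 4-fold in 48 and 55. The median difference over all probe sets was -0.01. In 19.1% of all probe sets the 3 arrays of Te lay wholly above or wholly below those of Rsch. A single gene was named for 567 of the called probe sets. In 117 of the 1000 the means of both accessions were below 5.32, and in another 175 the lower mean was.

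Arrays of the same replicate number at 8 h deviated together from their group means, and with the number as a block 1599 probe sets were called, among them all 1000. With 1 array left out the count fell most for Rsch replicate 1 (603), Te replicate 2 (596) and Te replicate 3 (571).

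When the plants were cold acclimated, 814 probe sets differed between the accessions (3.58%), with Te higher in 431 (1.89%) and lower in 383 (1.68%). Of the 1000 calls at 8 h, 539 were also called in this state, all in the same direction. This is 53.9% of the calls at 8 h and 66.2% of the calls of the cold acclimated state. The remaining 461 were called at 8 h only, and 275 were called in the cold acclimated state only. No probe set was called in opposite directions. The class of 539 had a median absolute difference of 1.09 at 8 h and 1.1 when cold acclimated. The 461 had 0.79 at 8 h and 0.43 when cold acclimated, where a smaller value follows from how the class was chosen. Of them, 445 (96.5%) had the same sign in both states, beside 70% of the probe sets called in neither state. Of the 461, 273 had an unadjusted p under 0.05 when cold acclimated, so that 188 remain called at 8 h only if such probe sets are left out. Leaving out Rsch replicate 1, Te replicate 2 or Te replicate 3 at 8 h gave 181, 208 and 179 in the class called at 8 h only, against 461, and the block gave 811. Across all 22746 probe sets the differences at 8 h and when cold acclimated had a Pearson correlation of 0.82, as a description over probe sets that share arrays within each state and are not independent.

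**Figure D1:**
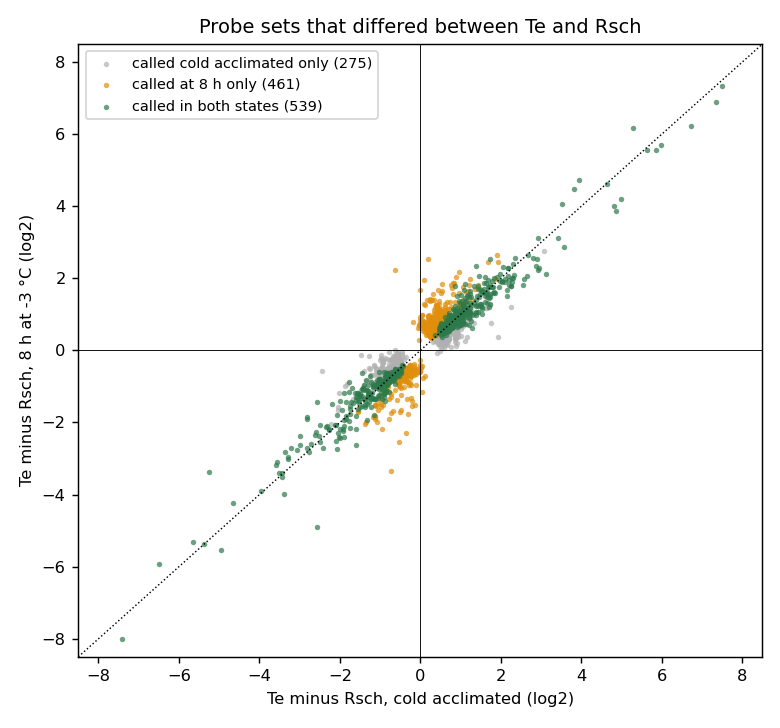
Difference Te minus Rsch (log2) when cold acclimated (horizontal axis) against that after 8 h at -3 °C (vertical axis), 1 point for each probe set called in at least 1 state, with equality as the dotted line. The 539 probe sets called in both states lie along the dotted line. The 461 called at 8 h only lie nearer to 0 on the horizontal axis, which follows from how they were chosen.

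A direct test of whether the difference changed between the states, the difference at 8 h minus that when cold acclimated, called 2 probe sets (0.00879%). Without adjustment 369 probe sets (1.62%) had a p under 0.05. The class called at 8 h only is thus a class by calls, and for 459 of its 461 probe sets the change in the difference itself did not pass the test. The 2 called probe sets were AT1G57850 and AT5G20885, both in that class.

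AT1G57850 was lower in Te than in Rsch at 8 h, and it rose from the cold acclimated state in Rsch. At 8 h its level was 3.69, 3.86 and 3.96 in Te and 6.44, 6.60 and 6.05 in Rsch. When cold acclimated it was 3.58, 3.76 and 3.54 in Te and 4.06, 4.12 and 4.27 in Rsch. The Te values lay between 3.54 and 3.96 in both states, and the Rsch values at 8 h were all far above every other value. The Te means (3.83 at 8 h and 3.63 when cold acclimated) and the cold acclimated Rsch mean (4.15) were below 5.32. The Te means at 1 d and 3 d, 4.01 and 3.95, were below it too. These signals may be background, where a change could go unseen, and whether the probes read the Te transcript was not tested. The difference Te minus Rsch was -2.53 ± 0.21 (SE) at 8 h (limma adjusted p = 8.3e-09) and -0.52 ± 0.21 when cold acclimated (adjusted p = 0.254), and the difference of these was -2.01 ± 0.30 (adjusted p = 0.014). From the cold acclimated state to 8 h the gene rose by 2.21 in Rsch (adjusted p = 3.76e-06), where 1.31% of probe sets changed, while the value for Te was 0.21 (adjusted p = 0.999), where 0.317% changed. Both Col arrays at 8 h, at 6.19 and 6.54, lay with Rsch. The change in the difference was not called when any of 7 single arrays was left out (Rsch replicates 1 and 2 and Te replicate 2 in either state, and Te replicate 1 at 8 h), with adjusted p from 0.0539 to 0.0993.

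AT5G20885 had the opposite course. Te read 7.98, 7.56 and 7.33 when cold acclimated and 9.06, 9.13 and 9.39 at 8 h. Rsch read 7.99, 7.58 and 7.36 when cold acclimated and 7.62, 7.60 and 7.35 at 8 h. The accessions were level before the treatment, replicate by replicate, and all Te arrays were above all Rsch arrays after it. Te minus Rsch was -0.02 ± 0.20 when cold acclimated and 1.67 ± 0.20 at 8 h (adjusted p = 4.58e-06), a change of 1.69 ± 0.29 (adjusted p = 0.0438). In Te the gene rose by 1.57 (adjusted p = 0.000513), and the value for Rsch was -0.12 (adjusted p = 0.855). Col, at 9.16 and 8.72, lay with Te. The change in the difference was lost in the fits without any single array at 8 h and without Rsch replicate 1 or 2 or Te replicate 2 or 3 of the cold acclimated state (adjusted p 0.0827 to 0.296), and also under quantile normalization, median centring, the fit on the compared arrays alone and the trend and robust setting.

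Because the states differ in the spike-in sets, both tests of change were repeated with the set as a block and in the larger set alone. The adjusted p was 0.0112 and 0.0234 for AT1G57850, and 0.0321 and 0.0234 for AT5G20885.

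Among probe sets that name 1 gene, the largest differences belonged to genes called in both states. Where the lower accession's mean was below 5.32, as for AT2G15130, AT2G25450, QQS, AT4G29200 and AOP1 below, its signal may be background, so no fold is given and the order of the differences is that of the signals. AT2G25510 was the highest in Te, with 13.06, 12.90 and 12.86 there against 6.04, 5.73 and 5.02 in Rsch at 8 h. AT2G15130 had 10.91, 11.05 and 10.99 in Te and 4.12, 4.1 and 4.05 in Rsch. In both genes every Te array was far above every Rsch array. The differences were 7.34 ± 0.32 (162-fold, adjusted p = 7.33e-15) and 6.89 ± 0.14 (adjusted p = 2.2e-22), and they were 7.5 and 7.35 when cold acclimated. For AT2G25510 the Col arrays, 13.36 and 13.38, were near Te, and for AT2G15130, at 3.93 and 4.11, they were near Rsch.

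AT2G25450, a dioxygenase of glucosinolate side chains, is part of the leaf's chemical defence against insects. Its level at 8 h was 11.44, 10.50 and 10.29 in Te and 3.66, 5.52 and 4.51 in Rsch. All Te arrays were high, and the Rsch arrays were low and more scattered. The difference was 6.18 ± 0.54 (adjusted p = 1.64e-08) at 8 h and 5.28 when cold acclimated. QQS, a gene found only in this species that is known to act on starch content, read 8.74, 9.15 and 8.64 in Te and 5.20, 4.98 and 4.73 in Rsch. Its difference was 3.87 ± 0.30 at 8 h (adjusted p = 1.76e-09) and 4.86 when cold acclimated. The change of -0.98 between the states did not pass the test (adjusted p = 1.00). Other genes of this kind were AT4G32240, AT1G72920, AT5G03350 and AT2G14460, with differences of 5.70, 4.62, 4.2 and 4.01 at 8 h.

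Among the genes lower in Te, AT4G29200 had 4.64, 4.60 and 4.47 in Te and 10.08, 10.02 and 9.59 in Rsch. This is a difference of -5.32 ± 0.15 (adjusted p = 6.36e-19), after -5.65 when cold acclimated. The Col arrays, at 4.25 and 3.98, were as low as Te. AT4G12490, of the lipid transfer protein family, read 8.26, 8.22 and 8.21 in Te and 11.19, 12.01 and 11.67 in Rsch. Te was here the accession that stood apart, since Col read 12.23 and 12.24. ECS1, which encodes a cell wall protein, read 5.74, 5.55 and 5.84 in Te, 8.48, 9.20 and 9.03 in Rsch and 11.33 and 11.44 in Col, so that the 3 accessions formed 3 separate levels. Their differences Te minus Rsch were -3.40 ± 0.37 and -3.19 ± 0.20 (adjusted p = 7.28e-07 and 1.91e-11). AT3G47320 (-4.24), AT5G41660 (-3.52), AT1G10585 (-3.40), AT5G44570 (-2.95) and AT3G44280 (-2.81) were lower in Te as well. The call of AT5G44570 was lost in the fit on the 6 compared arrays alone (adjusted p = 0.074).

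These 16 genes, the 8 highest and 8 lowest differences called in both states among genes whose arrays did not overlap at 8 h, were mostly called at the later times too. Of them 15 were called in the same direction at 1 d and 15 at 3 d. The size did not always last, since AT1G72920 had 2.78 at 1 d after 4.62 at 8 h and AT5G03350 had 2.51 at 3 d after 4.2. The exception among the calls was AT1G10585 in both cases, with -1.15 (adjusted p = 0.448) and -0.08 (adjusted p = 0.979). None of the 16 had a called change from the cold acclimated state to 8 h within Te or within Rsch.

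**Figure D2:**
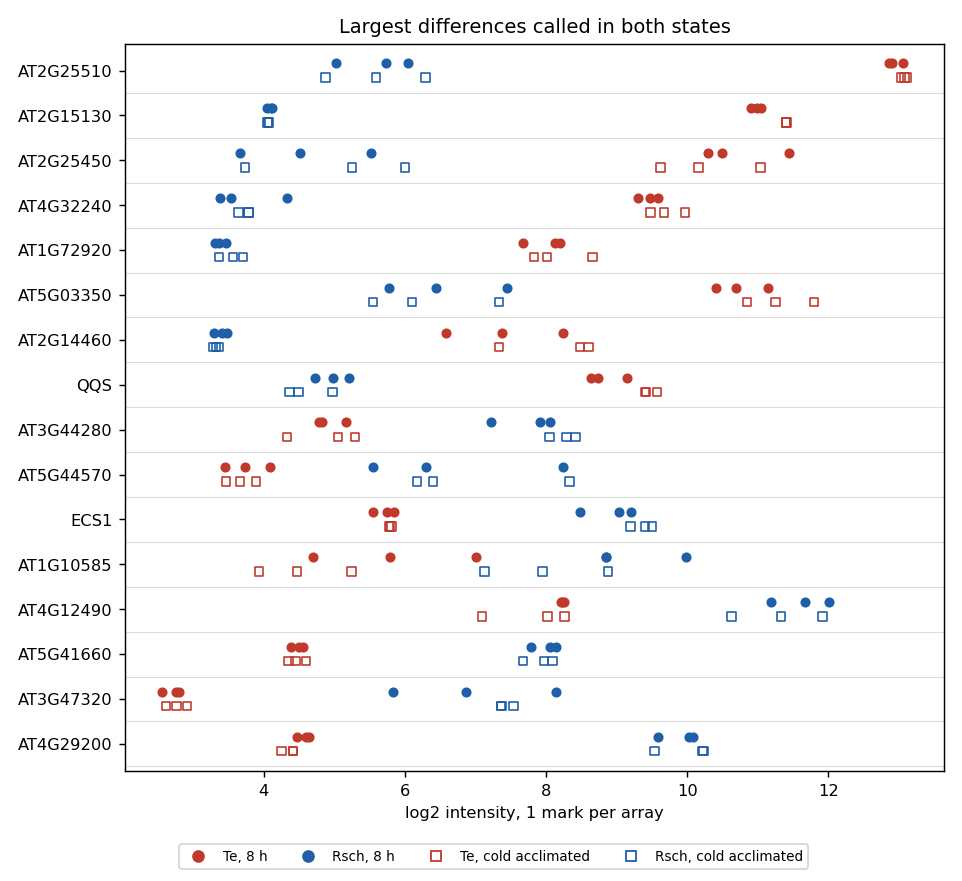
Log2 intensity of the 8 genes with the highest and the 8 with the lowest difference called in both states, 1 mark per array, with filled circles for 8 h at -3 °C and open squares for cold acclimated leaves, Te in red and Rsch in blue. In all 16 genes the Te and Rsch marks do not overlap in either state, at 8 h as the choice of genes required. The 2 states of an accession mostly lie near each other. AT1G10585 is an exception, with means of 4.55 cold acclimated and 5.83 at 8 h in Te, and 7.99 and 9.23 in Rsch.

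Of the named genes called at 8 h only, 4CL8 had the largest difference. It is named as a member of the 4-coumarate:CoA ligase family, enzymes that activate small organic acids. At 8 h it read 4.96, 5.37 and 5.75 in Te and 8.60, 8.62 and 8.88 in Rsch. When cold acclimated it read 4.79, 4.46 and 4.18 in Te and 5.21, 4.92 and 5.51 in Rsch. Rsch thus stood far above Te at 8 h and just above it before. Both cold acclimated means (4.47 in Te and 5.21 in Rsch) were below 5.32, so those signals may be background. The Te mean at 8 h, 5.36, was close to that level. The difference was -3.35 ± 0.54 at 8 h (10.2-fold, adjusted p = 0.000239) and -0.74 ± 0.54 when cold acclimated (adjusted p = 0.666). The gene rose in Rsch by 3.49 (adjusted p = 0.00136), and the value for Te was 0.88 (adjusted p = 0.977). The change in the difference, -2.61 ± 0.76, did not pass the test over all probe sets (adjusted p = 1.00). The difference was called again at 1 d (-3.58, adjusted p = 0.00011) and was -1.39 at 3 d (adjusted p = 0.164).

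AT1G14780 followed the same pattern. Its arrays read 5.97, 6.64 and 6.84 in Te and 8.34, 8.14 and 9.84 in Rsch at 8 h. When cold acclimated the accessions overlapped, with 6.06, 6.63 and 6.63 in Te and 6.37, 6.76 and 7.27 in Rsch. It rose by 1.97 in Rsch (adjusted p = 0.00434), and the value for Te was 0.05. The difference at 8 h was -2.29 ± 0.36 (adjusted p = 0.000166), but not in the fit on the compared arrays alone (adjusted p = 0.0636). WRKY42, a transcription factor of the WRKY family, read 4.84, 4.94 and 4.87 in Te and 6.67, 7.35 and 6.37 in Rsch at 8 h. The Te arrays were close together and all below Rsch. The Te means at 8 h (4.89) and when cold acclimated (4.64) were below 5.32, so the Te signals may be background. Its difference was -1.91 ± 0.42 at 8 h (adjusted p = 0.00737) and -1.14 when cold acclimated, where the accessions overlapped. Without Rsch replicate 2 at 8 h it was -1.64 (adjusted p = 0.0536).

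SWEET2, a sugar carrier of the vacuole membrane, read 7.01, 6.12 and 7.14 in Te and 8.5, 8.13 and 8.74 in Rsch at 8 h, and the accessions did not overlap. When cold acclimated they did, with 6.12, 6.64 and 6.50 in Te and 6.43, 7.46 and 6.90 in Rsch. The difference at 8 h was -1.70 ± 0.42 (adjusted p = 0.0172). It was not called without Rsch replicate 1, Rsch replicate 3 or Te replicate 2 at 8 h (adjusted p up to 0.124). SWEET2 was chosen after its values were seen.

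Among genes higher in Te at 8 h only, AT5G53750 read 9.15, 9.41 and 9.48 in Te and 7.43, 6.67 and 7.86 in Rsch. Before the treatment it read 6.95, 7.38 and 7.29 in Te and 6.06, 6.39 and 6.49 in Rsch. Te was above Rsch in both states, by 2.03 ± 0.32 at 8 h (adjusted p = 0.000217) and by 0.89 ± 0.32 when cold acclimated (adjusted p = 0.163). In Te the gene rose by 2.14 (adjusted p = 0.0033), and the value for Rsch was 1.01 (adjusted p = 0.134). AT5G28430 had differences of opposite sign in the states, with 2.23 ± 0.51 at 8 h (adjusted p = 0.00978) and -0.63 ± 0.51 when cold acclimated. Its arrays at 8 h read 8.09, 8.70 and 8.86 in Te and 6.22, 7.18 and 5.55 in Rsch. The change of 2.86 ± 0.72 did not pass the test (adjusted p = 1.00), and the call at 8 h was lost without Rsch replicate 3 or without Te replicate 3 (adjusted p 0.0587 and 0.0554).

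The other 10 genes with the largest differences in this class were AT3G60290, AT1G23850, AT1G74010 and AT3G18560, lower in Te by -2.19 to -1.90, and AT2G19310, AT4G28085, AT1G72790, AT4G22000, AT3G28270 and AT3G15720, higher by 1.96 to 2.66. Without a single array at 8 h the call was lost for AT3G60290 (Rsch replicate 1, adjusted p = 0.0944), AT1G74010 (Te replicate 2, 0.0586), AT2G19310 (Te replicate 2, 0.0751) and AT3G15720 (Te replicate 3, 0.0712). It was lost for AT1G72790 without Rsch replicate 1 or 2 or Te replicate 3 (adjusted p up to 0.0996). For AT3G28270 it was lost without Rsch replicate 1 or 2 or Te replicate 2 or 3 (up to 0.186), and for AT4G28085 without Rsch replicate 1 or 2 or Te replicate 1 or 3 (up to 0.137). All of these calls were also lost in the fit on the compared arrays alone (adjusted p 0.0614 to 0.101). Of the 16 genes with the largest differences in this class, 10 were called in the same direction at 1 d and 3 at 3 d. In 8 of the 16 the arrays of the accessions overlapped when cold acclimated. A called change from the cold acclimated state to 8 h was found for 3 of them in Rsch (4CL8, AT1G57850 and AT1G14780) and for 1 in Te (AT5G53750).

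**Figure D3:**
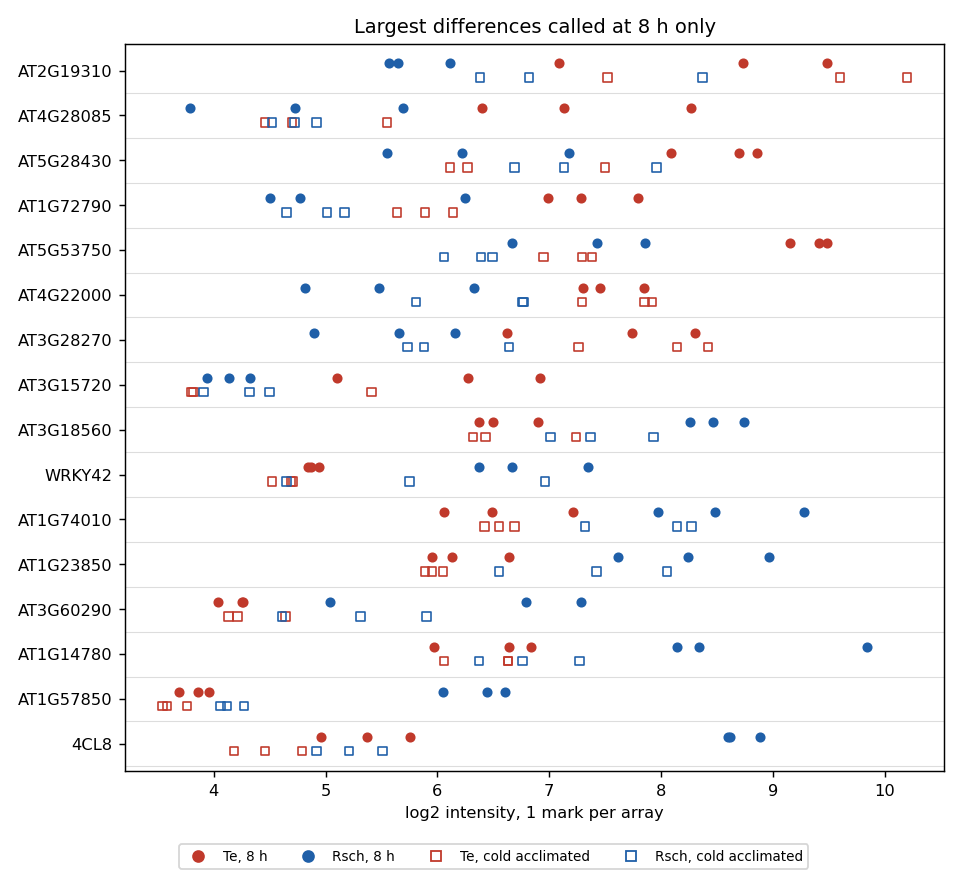
Log2 intensity of the 8 genes with the highest and the 8 with the lowest difference called at 8 h only, 1 mark per array, with filled circles for 8 h at -3 °C and open squares for cold acclimated leaves, Te in red and Rsch in blue. The filled circles of the accessions do not overlap in any of the 16 genes, as the choice of genes required, while the open squares overlap in 8.

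Lists of genes by pathway and family were covered only in part, since probe sets without a gene name could not be matched. They held 6 of 38 CBF and COR entries, 2 of 37 clock entries and 11 of 79 photosynthesis entries. Over 300 genes in lists of pathways and families 18 were called, which is 6% against 4.22% of the 13355 genes with a probe set of their own (2.5% higher in Te and 1.72% lower). COR15A, a protein of the chloroplast stroma that accumulates in the cold, read 12.95, 13.12 and 12.83 in Te and 12.97, 13.05 and 12.87 in Rsch. The ranges overlapped and the difference was 0.01 ± 0.10 (adjusted p = 0.982). Its close relative COR15B was lower in Te, with 10.33, 10.18 and 9.99 against 11.29, 11.73 and 10.53. The difference was -1.02 ± 0.27 (adjusted p = 0.0276) after -1.17 when cold acclimated. It was not called without Rsch replicate 1 or 2 or Te replicate 2 or 3 at 8 h (adjusted p 0.0818 to 0.184). The fit on the compared arrays alone did not call it either (adjusted p = 0.159). COR15B was the only call among the 6 measured members of the CBF and COR list (median -0.15) and among the 10 of the LEA and dehydrin list (median 0.00). AT4G33980 had -0.86 ± 0.69 (adjusted p = 0.622). Neither of the 2 clock genes matched was called, with GI at -0.30 ± 0.55 (adjusted p = 0.865) and no unadjusted p under 0.05 in limma.

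Of 7 flowering and vernalization genes, AGL19 was lower and AGL24 higher in Te, in both states. AGL19, a MADS-box promoter of flowering after vernalization, read 3.45, 3.45 and 3.64 in Te, 4.56, 5.06 and 5.16 in Rsch and 6.62 and 6.95 in Col. Te was lowest, Col highest, and no array overlapped with another accession. The means of Te (3.51) and Rsch (4.93) were both below 5.32, so that their signals may be background. AGL24, another MADS-box promoter of flowering, read 5.54, 5.51 and 5.59 in Te and 4.70, 4.52 and 4.49 in Rsch. The differences were -1.41 ± 0.30 (adjusted p = 0.00459) and 0.98 ± 0.22 (adjusted p = 0.00802), and -1.99 and 1.37 when cold acclimated. The other 5 genes of the list were not called.

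Sugar and starch genes gave calls at both ends. Of 15 measured, QQS was higher in Te, as above, and TMT1 was lower. TMT1 carries sugars into the vacuole, and it read 6.91, 6.37 and 6.96 in Te against 8.92, 8.54 and 8.26 in Rsch. The Te arrays were all low, while Col, at 8.66 and 8.5, was as high as Rsch. The difference was -1.82 ± 0.20 (3.54-fold, adjusted p = 7.43e-07), as it had been when cold acclimated (-1.84). The list's median was -0.11. ETFBETA, a subunit of the flavoprotein that takes electrons from branched-chain amino acid breakdown in mitochondria, was the only call among 10 dark and starvation genes, at -0.53 ± 0.15 (adjusted p = 0.0384). It was not called without any single array at 8 h (adjusted p 0.0624 to 0.125), nor in the fit on the compared arrays alone (0.089).

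Defence and hormone genes that were called had also differed when cold acclimated. JMT, which methylates jasmonic acid, read 4.39, 4.66 and 5.15 in Te and 6.38, 6.30 and 5.85 in Rsch. Te was below Rsch in all arrays and near Col, at 4.22 and 4.53. The difference was -1.45 ± 0.22 (adjusted p = 9.4e-05), and it was the only call among 9 jasmonate genes (median -0.33). AOP1, a dioxygenase of the AOP locus of glucosinolate synthesis, read 7.01, 6.22 and 6.53 in Te and 4.33, 4.11 and 5.16 in Rsch. Te was higher in every array, by 2.06 ± 0.34 (adjusted p = 0.000353). AOP1 was the only call among the 7 genes matched in the glucosinolate list. That match did not include AT2G25450, which was called with a larger difference, as given above. GLR2.7, a glutamate receptor-like channel, was 2.33 ± 0.57 higher in Te (adjusted p = 0.0165) and CW9, a resistance gene of the CC-NBS-LRR kind, 0.85 ± 0.24 (adjusted p = 0.0372). GLR2.7 was not called without Rsch replicate 1 or Te replicate 2 or 3 at 8 h (up to 0.132), nor CW9 without Rsch replicate 1 or 3 or Te replicate 2 or 3 (up to 0.282). The fit on the compared arrays alone called neither gene (adjusted p = 0.0898 and 0.185). EFR, the receptor for bacterial elongation factor Tu, had -0.84 ± 0.30 (adjusted p = 0.135), and 0.0205 with the replicate number as a block. The jasmonate-responsive defensin PDF1.2 was not called, with 7.75, 4.40 and 8.98 in Te and 9.26, 10.62 and 9.96 in Rsch (adjusted p = 0.404).

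Enzyme families of secondary metabolism and detoxification gave 7 calls, all lower in Te, beside 1.72% of all genes called lower. They were CYP71B23 and CYP71B24 among 23 cytochromes P450, UGT76E11 among 47 UDP glycosyltransferases (2.13%), GSTU15 among 13 glutathione transferases, and BGLU15, BGLU42 and BGLU47 among 20 beta-glucosidases. The medians of the 4 families were -0.11, 0.01, -0.13 and -0.09. GSTU15, a tau-class glutathione transferase, read 4.77, 4.32 and 4.64 in Te and 5.88, 6.14 and 6.01 in Rsch, which did not overlap, and differed by -1.44 ± 0.27 (adjusted p = 0.00158). BGLU15, known for cleaving flavonol glycosides, read 6.06, 4.98 and 5.47 in Te and 6.50, 7.41 and 8.17 in Rsch and differed by -1.86 ± 0.45 (adjusted p = 0.0152). The call of GSTU15 stood in every alternative. That of BGLU15 was lost without Rsch replicate 3 or Te replicate 2 or 3 at 8 h (up to 0.0999), that of BGLU42 (-0.77) without Te replicate 2 (0.0743), and that of CYP71B24 (-0.85) without Rsch replicate 1 or Te replicate 1 (up to 0.0867). CYP71B23 (-1.22) was lost without any array at 8 h but Te replicate 3 (up to 0.141), UGT76E11 (-1.89) without any array at 8 h (up to 0.145), and BGLU47 (-0.53) without 9 of the 12 arrays, all but Rsch replicate 3 at 8 h and Rsch replicates 1 and 2 of the cold acclimated state (up to 0.219). In the fit on the compared arrays alone BGLU15, BGLU42, BGLU47, CYP71B24 and UGT76E11 were not called (adjusted p 0.0652 to 0.133).

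**Figure D4:**
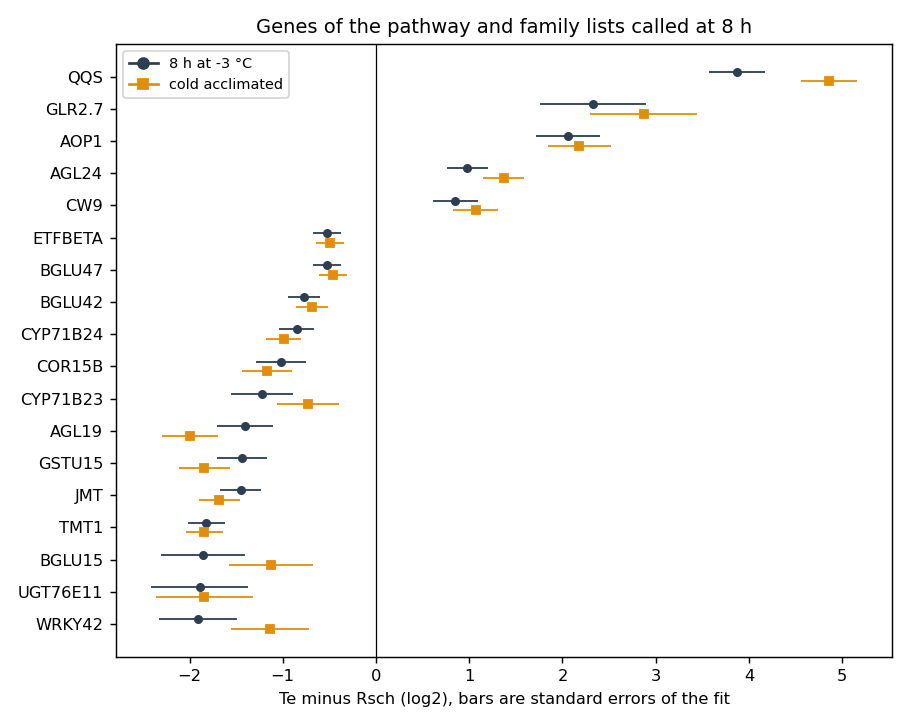
Difference Te minus Rsch (log2) of the 18 genes of the pathway and family lists called at 8 h, with standard errors of the fit, after 8 h at -3 °C (dark circles) and cold acclimated (orange squares). The difference has the same sign in both states in all 18 genes, with 5 higher and 13 lower in Te.

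Several groups tied to cold and growth held no call at 8 h in limma. Over all probe sets 15.6% had an unadjusted p under 0.05, which is the share to set beside the counts that follow. None of 11 photosynthesis and Calvin cycle genes was called, with 2 at an unadjusted p under 0.05, and all 11 had a negative difference (median -0.35, and -0.39 when cold acclimated). PRK, a Calvin cycle kinase, had the largest of these differences, with 10.71, 10.38 and 10.53 in Te and 11.80, 11.31 and 10.85 in Rsch (-0.78 ± 0.37, adjusted p = 0.314). None of 7 flavonoid genes was called (1 unadjusted), with a median of 0.47 and 6 of 7 positive. DFR, an enzyme of anthocyanin synthesis, had 1.14 ± 0.68 (adjusted p = 0.455). None of 17 reactive oxygen genes (4 unadjusted), 8 autophagy genes (1), 8 aldehyde dehydrogenases (0), 7 calmodulin-like genes (1) and 15 defensins and thionins (2) was called. The calmodulin-like gene CML41 had 1.38 ± 0.47 (adjusted p = 0.1), and 0.024 in the larger spike-in set. The medians of these 5 lists were 0.00, 0.22, -0.08, 0.00 and 0.02.

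Of 20 cell wall genes none was called in limma at 8 h, and 2 had an unadjusted p under 0.05 (median -0.12). XTH33, a xyloglucan-remodelling enzyme, read 10.61, 8.03 and 9.12 in Te and 6.24, 5.21 and 8.01 in Rsch. The groups did not overlap by a margin of hundredths, between Te replicate 2 and Rsch replicate 3. The difference was 2.77 ± 0.86 (adjusted p = 0.0674), and 0.0445 with the replicate number as a block. It was called without Rsch replicate 3 at 8 h (3.53, adjusted p = 0.0255) and without Te replicate 1 or 3 of the cold acclimated state (adjusted p = 0.0454 and 0.049). When cold acclimated it was called (3.07, adjusted p = 0.0429). None of the 18 expansins, which loosen cell walls, was called or had an unadjusted p under 0.05, and their median was -0.10.

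Called transcripts of the mitochondrial genome were higher in Te. These genes, and those of the next paragraph, were chosen after their values were seen. Of 16 mitochondrion-encoded genes 3 were called, all higher in Te, beside 2.5% of all genes called higher, and 14 had a positive difference (median 0.28, and 0.34 when cold acclimated). cox2, a subunit of cytochrome c oxidase, read 6.40, 6.01 and 6.45 in Te and 5.64, 4.80 and 5.32 in Rsch. It was higher in all Te arrays, by 1.03 ± 0.20 (adjusted p = 0.00248), and by the same 1.03 when cold acclimated. nad4L, a subunit of respiratory complex I, read 6.04, 5.6 and 6.27 in Te and 5.21, 5.22 and 4.89 in Rsch (0.86 ± 0.18, adjusted p = 0.00517). The Rsch means of cox2 (5.25) and nad4L (5.11) at 8 h were below 5.32, so these signals may be background. cox1 had 0.94 ± 0.27 (adjusted p = 0.0434). In the fit on the compared arrays alone cox2, nad4L and cox1 were not called (adjusted p = 0.0916, 0.0957 and 0.174). Without Te replicate 3 at 8 h nad4L was not called (adjusted p = 0.0542). For cox1 this held without any array at 8 h but Rsch replicate 3, without Rsch replicate 2 and without Te replicate 3 of the cold acclimated state (up to 0.211). nad6 had 0.72 ± 0.22 (adjusted p = 0.0675, and 0.0268 with the replicate number as a block). The probe sets of nad1 disagreed, since 1 of 7 was called at 0.82 ± 0.17 and the brightest had 0.13 ± 0.17. None of 69 chloroplast-encoded genes was called, with 7 at an unadjusted p under 0.05 and a median of 0.09. psbA, the D1 protein of photosystem II, read 10.74, 9.50 and 10.34 in Te and 11.42, 11.33 and 11.28 in Rsch, and its difference of -1.15 ± 0.46 had an adjusted p of 0.192, and 0.0460 with the block.

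**Figure D5:**
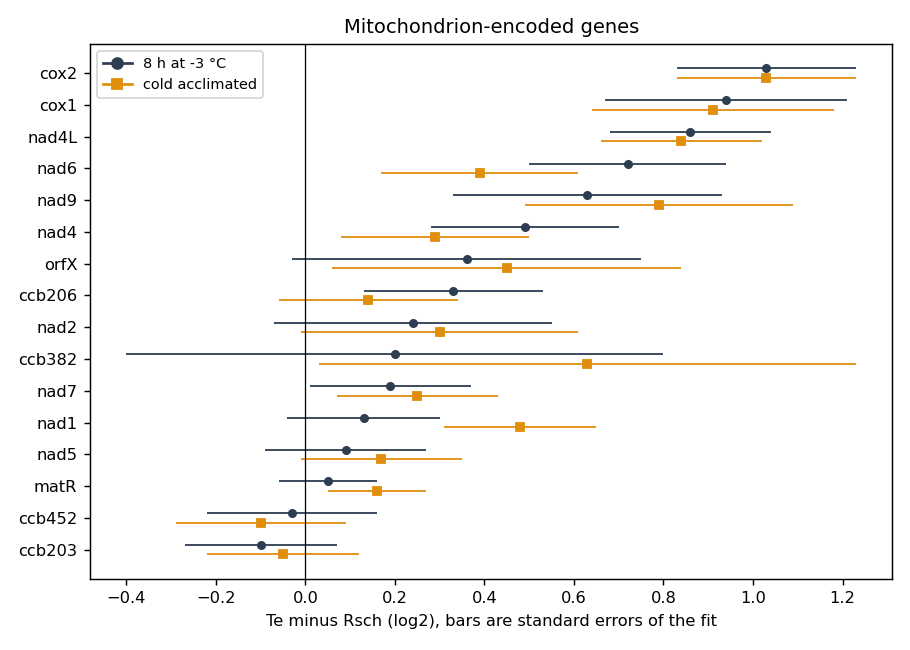
Difference Te minus Rsch (log2) of the 16 mitochondrion-encoded genes, each by its brightest probe set, with standard errors of the fit, after 8 h at -3 °C (dark circles) and cold acclimated (orange squares). At 8 h 14 of the 16 circles are above 0, and cox2, cox1 and nad4L were called.

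Genes with a RefSeq symbol made up 61 of the called probe sets, 28 higher and 33 lower in Te, with 37 called in both states and 24 at 8 h only. By 1 probe set a gene, 60 of 1557 genes with a symbol were called, beside 564 of all 13355 genes (4.22%). Among those lower in Te in both states was NDB1, a mitochondrial NAD(P)H dehydrogenase on the outer face of the inner membrane. It read 6.36, 7.15 and 7.06 in Te and 9.02, 9.04 and 8.33 in Rsch, a difference of -1.94 ± 0.27 (3.84-fold, adjusted p = 3.09e-05). The dioxygenase gene 2A6 read 5.65, 5.92 and 5.56 in Te and 8.2, 7.73 and 7.71 in Rsch. All arrays of Te were well below those of Rsch in both genes. For 2A6 the difference was -2.17 ± 0.22 (adjusted p = 1.74e-07), while its other probe set had -0.46 ± 0.17 (adjusted p = 0.141). TBL23, of the trichome birefringence-like family that acts on wall polysaccharide acetylation, had -1.01 ± 0.13 (adjusted p = 8.87e-06). These 3 calls stood in every alternative.

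Higher in Te in both states were PUB25, a U-box ubiquitin ligase known from the cold response, Cpn60beta3, a subunit of the chloroplast chaperonin, GRXC1, a glutaredoxin, FIS1B, which acts in organelle fission, and NRPE7, a subunit of RNA polymerase V. PUB25 read 6.88, 7.32 and 6.28 in Te and 5.07, 5.14 and 5.65 in Rsch, a difference of 1.54 ± 0.28 (adjusted p = 0.00106). GRXC1 read 8.69, 8.37 and 8.58 in Te and 6.75, 7.48 and 7.74 in Rsch, a difference of 1.22 ± 0.21 (adjusted p = 0.000445). In both the accessions did not overlap. The calls of PUB25 and GRXC1 were lost in the fit on the 6 compared arrays alone (adjusted p = 0.0508 and 0.0726). Cpn60beta3, NRPE7 and FIS1B had 1.12 ± 0.18, 1.04 ± 0.17 and 0.99 ± 0.17 (adjusted p = 0.000202, 0.000367 and 0.000547), and these calls stood in every alternative.

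Higher in Te at 8 h only was NRPB6A, a subunit shared by nuclear RNA polymerases. It read 10.30, 10.25 and 10.07 in Te and 8.87, 9.41 and 9.28 in Rsch at 8 h, and 10.34, 10.26 and 10.39 in Te and 9.96, 9.95 and 10.00 in Rsch when cold acclimated. Te kept its level while Rsch was lower at 8 h. Within Rsch the gene fell by 0.78 (adjusted p = 0.022), and the value for Te was -0.12 (adjusted p = 0.999). The difference Te minus Rsch was 1.02 ± 0.17 (adjusted p = 0.000508), and its change from 0.36 when cold acclimated did not pass the test (adjusted p = 1.00). LSM3B, of the LSm complexes of mRNA decay and splicing, read 8.46, 8.38 and 8.60 in Te and 7.01, 7.91 and 7.87 in Rsch, a difference of 0.88 ± 0.19 (adjusted p = 0.00618). Without Rsch replicate 1 at 8 h, the lowest array, it was 0.59 (adjusted p = 0.0722). DI21, named for its induction by drought, had 1.1 ± 0.26 (adjusted p = 0.0127) and was not called without Rsch replicate 1 or Te replicate 2 or 3 at 8 h (up to 0.0913). The fit on the compared arrays alone called neither LSM3B nor DI21 (adjusted p = 0.15 and 0.0521).

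The same comparison was made after 1 d and 3 d at -3 °C. Of the 1000 probe sets, 557 were called in the same direction at 1 d, where 4.08% of all probe sets were called, and 460 at 3 d, where 4.59% were. By class, 427 of 539 (79.2%) were called at 1 d and 371 (68.8%) at 3 d, against 130 of 461 (28.2%) and 89 (19.3%). The difference between the classes was not tested, and the class called in both states had the larger differences at 8 h. The 4 comparisons share no arrays, but the fit gave them 1 shared variance for each probe set. Deviations of same-numbered arrays at 8 h and when cold acclimated correlated by 0.16 to 0.6 in Te and 0.33 to 0.47 in Rsch. The calls of the comparisons are therefore not independent.

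Col at 8 h lay nearer to the higher of the accessions in 518 of the 1000 called probe sets (51.8%) and nearer to the lower in 482. Over all probe sets tested it lay nearer to the higher in 42.8%. The share was 54.9% in the class called in both states and 48.2% in the class called at 8 h only. With 2 Col arrays and probes made to the Col sequence, these shares are a description.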

How the data were processed

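The 34 ATH1 arrays were summarised by the authors into 1 value per probe set on a log2 scale. RMA is named in the submitters' processing notes, its version is not given in the sources used here, and the log2 scale was taken from the range of the deposited values. Samples were grouped by title. The third cold acclimated replicates follow their titles, since another label numbers them differently. The study's design states 3 independent biological replicates, and 3 arrays were present for each Te and Rsch group used here and 2 for Col at 8 h.

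The 64 control probe sets were left out and 22746 were tested. Of these 13513 name 1 gene in the platform annotation, 503 several and 8730 none, and 13436 of the 13513 matched RefSeq (TAIR10.1). For genes with several probe sets the brightest stood for the gene. Means of 12 groups were fitted over all 34 arrays with limma 3.58.1 in R 4.3.3 (lmFit and eBayes, 22 residual degrees of freedom). Contrasts were Te minus Rsch in each state and the difference of differences, with Benjamini-Hochberg adjustment within each contrast over all probe sets and a two-sided call at an adjusted p under 0.05. Errors in the text are standard errors of this fit. Figures were drawn with matplotlib 3.10.9.

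At 8 h, deviations of same-numbered Te and Rsch arrays from their group means correlated by 0.33, 0.22 and 0.53. When cold acclimated the correlations were 0.27, 0.05 and 0.24. The main fit did not pair the samples. A fit with the replicate number as a block was made as an alternative, although the labels state no such link.

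Named genes came from probe sets with 1 gene. They were the 8 highest and 8 lowest differences of each class with no overlap of the Te and Rsch arrays at 8 h, the 8 smallest p of the difference of differences, up to 4 called members of each gene list or else the member with the largest difference, and COR15A and other named cold-regulated genes where measured. Genes with a RefSeq symbol and the organelle genes were named after their values were seen. The groups, the lists and the named genes were chosen with earlier results of these data known. The alternatives were other normalizations, filters, blocks, weights and thresholds, and each array left out in turn. Promoter sequences were not analysed here.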

Additional observations from a re-analysis of the deposited data

Results flagged for a closer look

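The difference between Te and Rsch changed from the cold acclimated state to 8 h at -3 °C, by a test of the change itself, for 2 probe sets. For AT1G57850 the change in Te minus Rsch was -2.01 ± 0.30 (SE, limma adjusted p = 0.014), from -0.52 to -2.53, with all 3 Rsch arrays at 8 h above all other Te and Rsch arrays of both states. For AT5G20885 it was 1.69 ± 0.29 (adjusted p = 0.0438), from -0.02 to 1.67, with all 3 Te arrays at 8 h above all others. Both calls were lost without single arrays, and the lower signals of AT1G57850 may be background, as given above.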

How the results depend on the processing

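With 3 arrays a group and signals near the dim end for some genes, the number of calls moved more than their direction, and the cause was not tested. The 1000 calls at 8 h became 1599 with the replicate block, which changed no other named call than those given above and lost none, 404 when only the arrays compared were fitted and 460 at an adjusted p under 0.01. Leaving out 1 array gave 571 to 1033. The 814 cold acclimated calls became 497 when only the larger of the spike-in control sets was fitted, which leaves out replicate 1 of both accessions in that state, 403 among the arrays compared and 421 at 0.01, and 470 to 834 without 1 array; the lowest were 542 without Rsch replicate 1, 541 without Te replicate 2 and 470 without Te replicate 3 of that state. The 2 differences of differences became 1 under quantile normalization, median centring, the arrays compared or the trend and robust setting, 0 at 0.01 and 0 to 2 without 1 array, where limma gave 260 to 768 at an unadjusted p under 0.05. The 539 called in both states became 203 among the arrays compared and 272 at 0.01, and 375 to 481 without 1 array. The 461 called at 8 h only became 704 with array weights, 811 with the replicate block, 201 among the arrays compared, 188 at 0.01 and 188 when an unadjusted p under 0.05 in the cold acclimated state counted as a difference, and 179 to 610 without 1 array. The 557 also called at 1 d became 888 with array weights, 333 in the larger spike-in set and 289 at 0.01. The 460 also called at 3 d became 707 with array weights, 722 with the replicate block and 257 at 0.01. Of 92 named calls at 8 h, 37 were kept in all 24 alternatives, 55 were lost in at least 1, 50 of them among the arrays compared, and 0 reversed.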

Other observations

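Some called genes lay beside each other. Of 560 called nuclear genes in chromosomal order 69 (12.3%) had a called neighbour, against 8.02% of the genes not called. In 42 of the 69 a neighbour differed in the same direction, and the share to be met by chance was not computed. Neighbours were the next measured genes in locus order, so genes without a probe set of their own were passed over. There were 3 runs of 3 neighbouring called genes. The run AT3G60290 to AT3G60310 was lower in Te throughout, by -2.19 to -0.44 at 8 h. The run AT4G00955 to AT4G00980 was higher throughout, by 1.14 to 2.09, and by 1.14 to 2.33 when cold acclimated. The run AT1G14750 to AT1G14780 held 2 genes higher in Te, among them SDS, a cyclin-like protein of meiosis, and 1 lower.

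From the cold acclimated state to 8 h, 35 of the 461 probe sets called at 8 h only changed within Rsch and 5 within Te. Over all probe sets 297 changed within Rsch and 72 within Te. The class was chosen with the same arrays, so the counts are a description.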
